A study of Homo sapiens with 8 samples.

Results

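The chromosome 19 zinc finger genes described here are the protein-coding genes on that chromosome whose symbol is ZNF followed by a number, and 249 of the 60668 genes in the deposited tables met this rule. RNA-Seq was performed on D283-OMO cells, a stable line made from D283 MED by lentiviral transduction. D283 MED is an established human medulloblastoma line with high MYC. The study uses it as a Group 3 model and describes it as lying between Group 3 and Group 4. The transgene encodes FLAG-tagged OMOMYC, a dominant-negative MYC mini-protein, under a promoter that doxycycline (DOX) switches on. The 4 untreated libraries (OMO) and the 4 libraries of cells given 0.25 µg/mL DOX for 72 h (OMO+DOX) come from independent biological replicates, and all 8 carry the transgene. Wild-type D283 MED cells given DOX were not analysed here, so that effects of DOX and of OMOMYC cannot be told apart.

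Zinc finger proteins of the C2H2 type read DNA with tandem fingers, each of which folds around a zinc ion and contacts a few bases. Most of those encoded on chromosome 19 also carry a KRAB domain, which recruits the corepressor TRIM28 (KAP1). TRIM28 in turn brings the histone methyltransferase SETDB1 and heterochromatin proteins to the bound site. Many members are known to silence transposable elements, and the family grew by tandem duplication, so that its genes lie side by side in clusters and resemble each other in sequence.

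A KRAB A box was found in the reference coding sequence of 214 members, and 35 had none. The number of C2H2 fingers had a median of 12 per protein, with quartiles of 9 and 15 and a highest count of 36, in ZNF208. Members were placed in clusters wherever consecutive gene starts lay within 1 Mb of each other. This gave 16 clusters, of which 9 held at least 5 members and together 238 of the 249. They are called here by their first and last member.

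Total counts ranged from 38390696 to 54020506 per library. Levels are given as CPM, counts scaled to a common library size with the TMM factors of edgeR. The members took 0.328 to 0.397% of all counts in a library, and 229 to 233 of them had more than 3 counts, which is the floor used here (at most 0.0748 CPM). Libraries correlated at r of 0.9925 to 0.9984 within a group and 0.901 to 0.916 between groups. Untreated replicate 3 stood apart from the other untreated libraries in many members, and its summed member level was the lowest of its group (3500 against 3720 to 3810 CPM), so the main counts are also given without it. Of 7 lineage markers, OTX2, CRX, NRL, IMPG2, GABRA5 and NPR3 fell (log2FC -1.04, -2.59, -3.55, -3.01, -1.75 and -2.57, DOX over untreated). OTX2, with the smallest of these falls, went from 1050 ± 17.4 to 510 ± 1.79 CPM (SD, n = 4). MYC rose from 939 ± 75.6 to 1120 ± 56.8 CPM, a value that may include reads of the OMOMYC transgene. CAD and NCL, MYC targets that the study used to check MYC inhibition, both fell (log2FC -0.48 and -0.44). Among markers of other cells, the summed level of 3 blood markers was 0.163 to 0.252 CPM without and 0.414 to 0.723 CPM with DOX, and that of 2 endothelial markers was 0.0203 to 0.0448 and 1.55 to 2.07 CPM, with PECAM1 at 2 counts or fewer throughout and CDH5 at 0 counts in every untreated library. The sum of 3 fibroblast markers was 34.6 to 36.8 and 55.3 to 68.7 CPM, of which PDGFRB rose from 13.5 ± 0.466 to 40.4 ± 4.48 CPM, COL1A1 did not pass the test and COL1A2 was at no more than 15 counts without and 2 counts with DOX. Their part in the results was not tested.

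The first comparison was of the family as a whole between untreated and DOX libraries. Of 224 members above 1 CPM in at least 4 libraries, 91 were higher and 64 lower with DOX, and 69 did not pass the test (edgeR quasi-likelihood test, Benjamini-Hochberg adjusted p below 0.05 over 15222 genes). The share called was 69.2% of the members tested, against 76.6% of all genes. The share higher was 40.6% against 38.5%, and the share lower was 28.6% against 38.1%. Without untreated replicate 3, 91 members were higher and 72 lower. With library size as the only scaling, which moved the median log2FC of all genes up by 0.13, 111 were higher and 49 lower, so that rises made up 69.4% of the called members in place of 58.7%, while 47% of all genes were then higher and 31% lower.

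Most of these changes were small. The median log2FC (DOX over untreated) of the members tested was 0.10, with quartiles of -0.28 and 0.39, and that of all genes was 0.01. Changes that passed the test and exceeded 2-fold were found in 14 members (6 rises and 8 falls), which is 6.25% of the members tested, against 20.9% of all genes. Only ZNF556 passed the stricter thresholds (FDR under 0.001, log2FC over 2 in size), which 7.12% of all genes passed. Without untreated replicate 1, ZNF44 passed them too, which made 2 members. The ranges of the untreated and DOX libraries did not overlap for 141 members (82 higher, 59 lower), or 62.9%, against 71.7% of all genes.

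**Figure D1:**
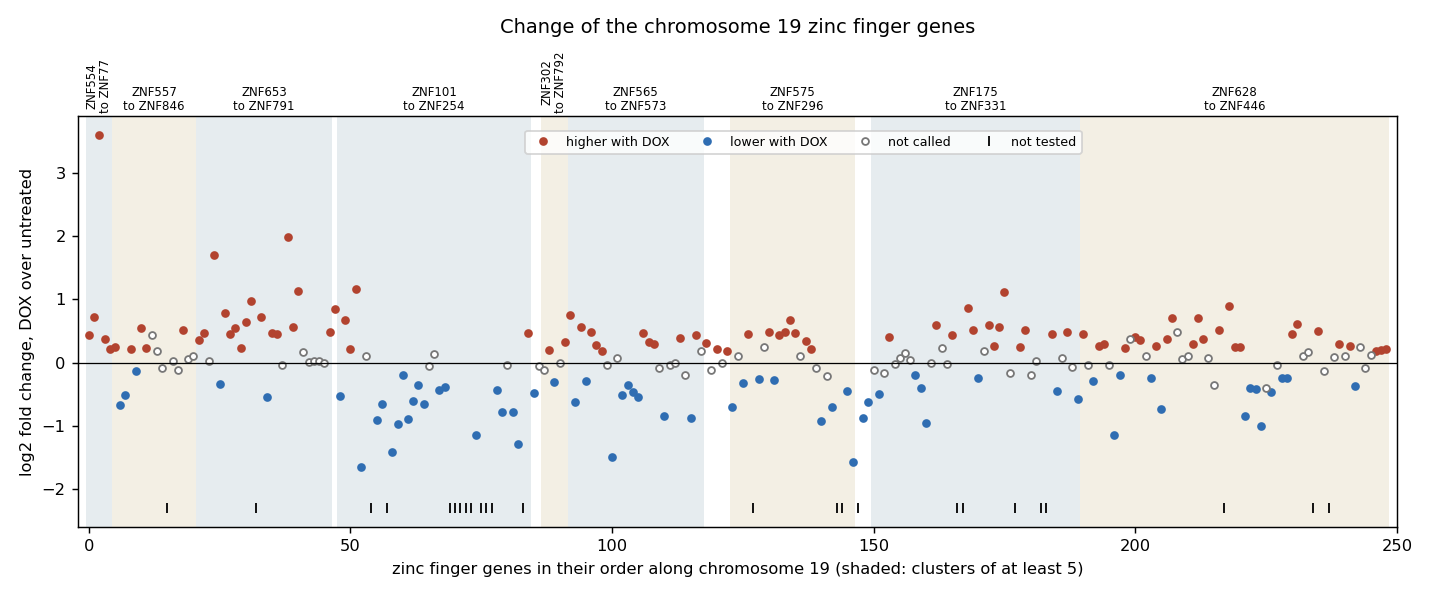
The log2 fold change (vertical axis, DOX over untreated) of each chromosome 19 zinc finger gene in chromosome order (horizontal axis, gene rank). Red points are genes higher with DOX, blue points genes lower, open points genes that did not pass the test and black ticks genes that were not tested; shading marks the 9 clusters of at least 5 members. All 5 genes of the first cluster are red, of which ZNF556 passed the filter through its DOX libraries alone. From ZNF653 to ZNF791 16 of 25 tested genes are red, and from ZNF101 to ZNF254 18 of 26 are blue.

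The balance of rises and falls was close to that of the zinc finger genes on other chromosomes. There, 265 protein-coding genes had a ZNF-number symbol and 232 were tested, with 95 higher, 70 lower and a median log2FC of 0.07. Of the 738 other protein-coding genes of chromosome 19 that were tested, 216 were higher and 349 lower, with a median log2FC of -0.15. No test of these differences was made.

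The members were transcribed at low levels. Per kb of exon, the median member stood at 2.03 CPM without and 2.26 CPM with DOX, and the median protein-coding gene at 5.35 and 5.44 CPM. Their summed level was 3700 ± 135 CPM in untreated and 3650 ± 126 CPM in DOX libraries (SD, n = 4 each), and the ranges overlapped (3500 to 3810 and 3530 to 3800 CPM). The means thus differed by less than 1 SD.

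The direction of change differed along the chromosome. The longest block of falls lay in the ZNF101 to ZNF254 cluster, at chr19:19668796-24129961 of GRCh38, next to the centromere on the short arm. Of its 37 members 26 were tested, with 18 lower, 4 higher and a median log2FC of -0.48. The counts were 18 and 4 without untreated replicate 3, too, and 16 and 6 with library size only. Of the 64 members called lower, 28.1% came from here, where 26 of the 224 members tested lie. The share lower was 69.2% of those tested, against 38.1% of all genes and 47.3% of the other protein-coding genes of chromosome 19. The summed level of the cluster was 463, 461, 388 and 452 CPM in the untreated libraries and 370, 379, 335 and 326 CPM with DOX. All DOX libraries thus lay below all untreated ones, with untreated replicate 3 nearest to them.

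Going along this cluster, 9 consecutive tested members fell without interruption, from ZNF486 through ZNF737, ZNF66, ZNF85, ZNF430, ZNF714, ZNF431 and ZNF708 to ZNF738, which was the longest run of 1 direction on the chromosome. Their log2FC ranged from -1.41 for ZNF66 to -0.20 for ZNF430. A further run of 5 (ZNF100, ZNF43, ZNF492, ZNF730 and ZNF724) followed. The groups did not overlap for 16 of the 18 members called lower. These members were already called, so this count is no separate support. Of all 15222 genes tested, 11661 were called and 10917 had groups that did not overlap.

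ZNF93, which is known to bind and repress L1 retrotransposons, fell the most of all members. Its level was 19, 21.1, 20.5 and 20.2 CPM in the untreated libraries and 6.45, 6.48, 6.41 and 6.38 CPM with DOX, a log2FC of -1.65 ± 0.06 (SE, adjusted p = 1.79e-10 by edgeR). The 4 DOX libraries were nearly identical and lay far below the untreated ones. The gene lies at chr19:19900913-19963464 on the plus strand and encodes 16 fingers.

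The gene just before it moved the other way. ZNF253, which ends 6238 bases before the start of ZNF93 on the same strand, was at 19.8, 19.3, 15.7 and 18.9 CPM in untreated and 43.5, 44.4, 39.5 and 38.2 CPM in DOX libraries. It rose by a log2FC of 1.17 ± 0.08 (adjusted p = 6.83e-08 by edgeR), the only rise of over 2-fold in the cluster. Between these neighbours the log2FC differed by 2.82, more than between any other consecutive members called in opposite directions. Other rises here were ZNF14 (log2FC 0.68), ZNF254 (0.47) and ZNF506 (0.22).

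Further along the cluster, ZNF66 fell from 8.08, 7.59, 5.31 and 8.58 CPM to 2.9, 3.19, 2.76 and 2.29 CPM (log2FC -1.41 ± 0.15, adjusted p = 5.20e-06 by edgeR). ZNF681 fell from 11.6, 11, 8.68 and 10.7 CPM to 4.22, 5.31, 3.93 and 3.79 CPM (log2FC -1.29 ± 0.12, adjusted p = 1.36e-06 by edgeR). In both genes untreated replicate 3 was the lowest untreated library, yet above every DOX library. ZNF492 was at 5.8, 6.85, 6.14 and 6.84 CPM without and 2.64, 3.94, 2.52 and 2.62 CPM with DOX (log2FC -1.14 ± 0.14, adjusted p = 1.28e-05 by edgeR), with DOX replicate 2 above the other 3.

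ZNF91, a repressor of SVA retrotransposons with 31 fingers by the reference, did not pass the test. Its level was 41.3, 41.7, 31.6 and 38.3 CPM in untreated and 39.4, 39.6, 35.3 and 34.8 CPM in DOX libraries, with a log2FC of -0.04 ± 0.09 (adjusted p = 0.711 by edgeR) whose sign turned to 0.09 with library size only. The ranges of the groups overlapped. The gene lies between ZNF724 and ZNF675, which both fell (log2FC -0.79 and -0.78).

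The same cluster held most of the silent members. Of the 15 members with at most 3 counts in every library, 11 lay here, among them 5 in succession over 0.60 Mb (ZNF208, ZNF257, ZNF676, ZNF729 and ZNF98, chr19:21932958-22532485) and 3 over 0.25 Mb (ZNF99, ZNF723 and ZNF728, chr19:22752183-23003176). The others were ZNF90, ZNF626 and ZNF726. ZNF676, ZNF729, ZNF99 and ZNF723 had 0 counts in all 8 libraries. Between these stretches, ZNF492 was detected at the levels given above.

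**Figure D2:**
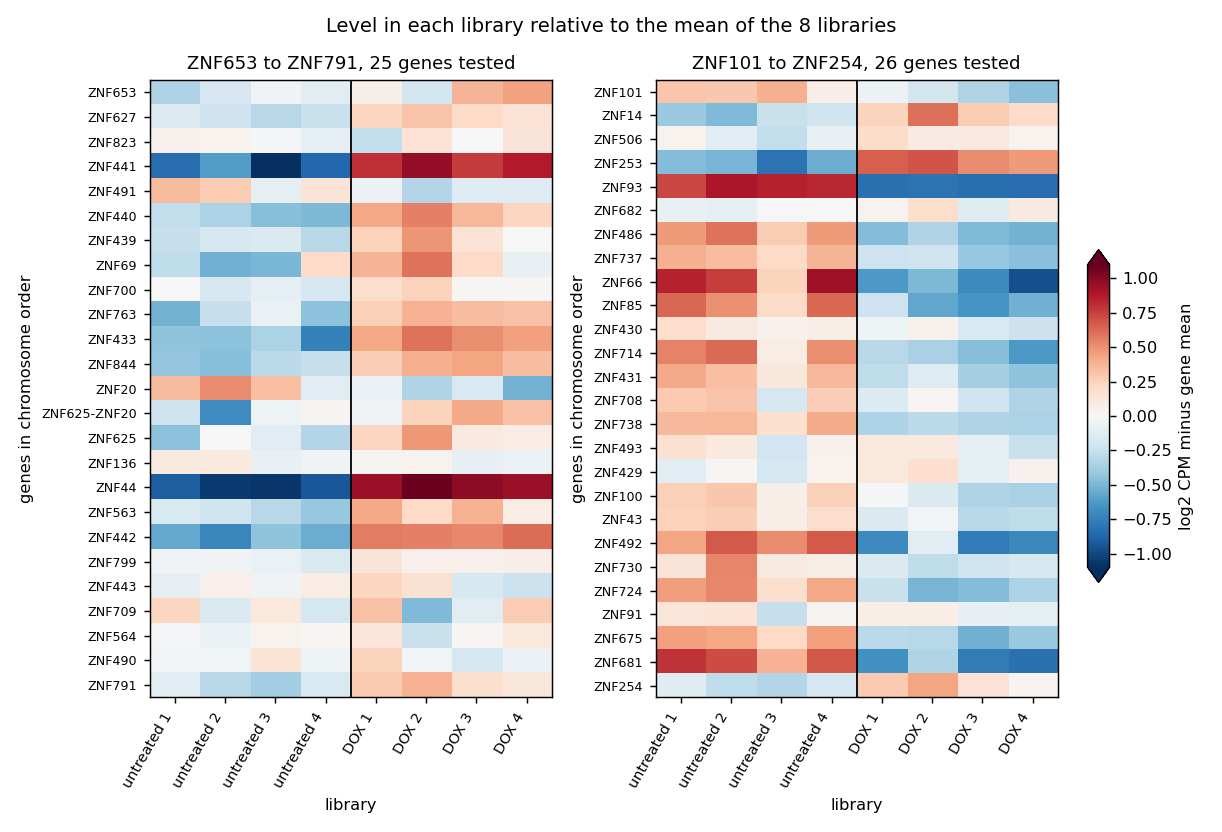
Levels of the tested genes of the ZNF653 to ZNF791 cluster (left) and the ZNF101 to ZNF254 cluster (right), with genes in chromosome order as rows and libraries as columns; colour is log2 CPM minus the mean of the gene over the 8 libraries, red above and blue below it, with the black line between untreated and DOX. On the left ZNF441 and ZNF44 change from blue to red, and on the right ZNF93, ZNF66 and ZNF681 change from red to blue, while ZNF253 goes the other way.

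The ZNF653 to ZNF791 cluster (chr19:11483427-12640098) changed mostly in the opposite direction. Of 25 members tested 16 rose and 2 fell, with a median log2FC of 0.45. The share higher was 64%, against 38.5% of all genes and 29.3% of the other protein-coding genes of chromosome 19. Without untreated replicate 3 the counts were again 16 and 2, and with library size only 17 and 1. Its summed level was 164, 157, 155 and 157 CPM in untreated and 230, 239, 221 and 217 CPM in DOX libraries, with no overlap. A run of 7 consecutive tested members rose, from ZNF440 through ZNF439, ZNF69, ZNF700, ZNF763 and ZNF433 to ZNF844. The expected count of each of these 7 was not whole in at least 1 library, so the division of their reads is uncertain. ZNF700 and ZNF763 share 577 and 1372 exonic bases on their strand with the same gene, AC008770.2. The groups of ZNF69 overlapped. Of the 16 rises, 13 had groups that did not overlap, again a count among members already called. Of all genes tested, 11661 were called and 10917 had groups that did not overlap.

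The largest rise here was that of ZNF44, a KRAB gene with 14 fingers at chr19:12224686-12294887 on the minus strand. It was at 5.18, 4.7, 4.63 and 5.09 CPM in the untreated libraries and 18.8, 20.6, 19.3 and 18.8 CPM with DOX (log2FC 1.98 ± 0.06, adjusted p = 1.28e-10 by edgeR). ZNF441 went from 4.47, 5.19, 3.72 and 4.37 CPM to 13.9, 15.6, 13.6 and 14.6 CPM (log2FC 1.70 ± 0.10, adjusted p = 1.40e-08 by edgeR). Each DOX library of either gene was more than 2-fold above every untreated library.

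ZNF442 and ZNF433 rose from lower levels. ZNF442 was at 1.57, 1.41, 1.71 and 1.59 CPM without and 3.43, 3.41, 3.34 and 3.54 CPM with DOX (log2FC 1.13 ± 0.10, adjusted p = 6.34e-07 by edgeR). ZNF433 was at 3.29, 3.27, 3.5 and 2.67 CPM without and 5.99, 6.75, 6.37 and 6.1 CPM with DOX (log2FC 0.98 ± 0.10, adjusted p = 2.01e-06 by edgeR). For both, the lowest DOX library exceeded the highest untreated one.

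The cluster also held members next to these that did not pass the test. ZNF799, ZNF443, ZNF709, ZNF564 and ZNF490 followed ZNF442 in order with log2FC of 0.16, 0.01, 0.03, 0.02 and -0.01, before ZNF791 rose by 0.49. The falls were ZNF491 (log2FC -0.34) and ZNF20, which was at 2.08, 2.34, 2.05 and 1.5 CPM in untreated and 1.56, 1.3, 1.45 and 1.14 CPM in DOX libraries (log2FC -0.55 ± 0.16, adjusted p = 0.00685 by edgeR). The ranges of ZNF20 overlapped. It shares 2212 exonic bases on its strand with the readthrough gene ZNF625-ZNF20, which rose (log2FC 0.46), so that the division of reads between the pair is uncertain. ZNF625-ZNF20 is counted among the 16 rises, although its groups overlapped. It also shares exons with ZNF625, another of these rises (log2FC 0.45).

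In the ZNF554 to ZNF77 cluster (chr19:2819874-2944971) all 5 members rose: ZNF554 by a log2FC of 0.43, ZNF555 by 0.72, ZNF556 by 3.61, ZNF57 by 0.37 and ZNF77 by 0.22. ZNF556 passed the filter through its DOX libraries alone, so only a rise could be found for it. ZNF554, ZNF555, ZNF57 and ZNF77 were above 1 CPM in both groups. Of all genes tested, 38.5% were higher. The summed level of the cluster was 30.8, 31.9, 32.2 and 30.2 CPM without and 43.1, 46.9, 44.6 and 44.9 CPM with DOX. All 5 also rose without untreated replicate 3. No other protein-coding gene within the span of this cluster was tested.

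ZNF556 gave the largest fold of the family from very few reads. Its counts were 6, 8, 4 and 2 in the untreated libraries and 59, 59, 73 and 49 with DOX, or 0.122, 0.155, 0.0813 and 0.0448 against 1.16, 1.47, 1.43 and 1.08 CPM. The ratio of the group sums was 12.5, with an exact 95% binomial interval of 7.88 to 20.8 that covers counting error only. The fitted log2FC was 3.61 ± 0.26 (adjusted p = 1.25e-07 by edgeR). ZNF556 passed the filter through its DOX libraries alone, and was the only member above 1 CPM in no untreated library. It was not tested when more than 4 libraries were required.

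**Figure D3:**
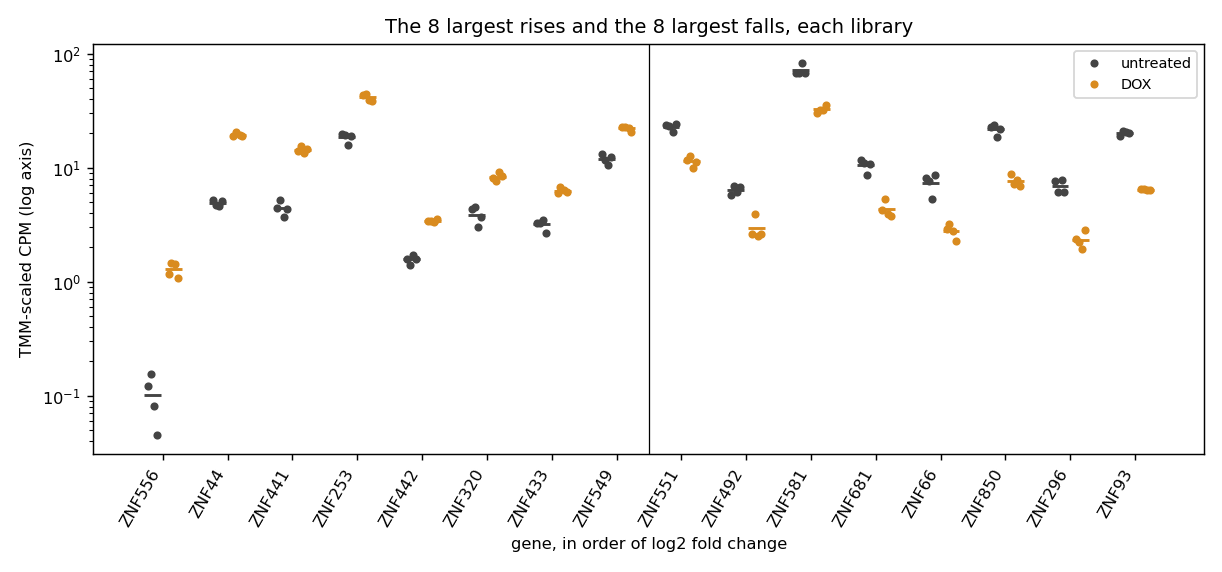
TMM-scaled CPM (log axis) of the members with the 8 largest rises and the 8 largest falls whose groups do not overlap, in order of log2 fold change; points are libraries (grey untreated, orange DOX, 4 each) and bars are group means. ZNF556 lies near 0.101 CPM without DOX, and the other 15 genes lie above 1 CPM in every library.

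The other clusters held rises and falls side by side. From ZNF557 to ZNF846 (chr19:7069444-9793180), 5 of 15 tested members rose (33.3%) and 3 fell (20%), with a median log2FC of 0.11. Of all genes tested, 38.5% rose and 38.1% fell. In this cluster ZNF699 rose the most, from 6.2, 5.32, 4.53 and 5.15 CPM to 7.59, 8.7, 7.47 and 7.07 CPM (log2FC 0.54 ± 0.10, adjusted p = 0.000536 by edgeR). ZNF358 fell the most, from 88, 93.2, 114 and 92.2 CPM to 60.1, 54.1, 60.9 and 68.6 CPM (log2FC -0.67 ± 0.09, adjusted p = 2.91e-05 by edgeR). It was among the 5 most abundant members per kb. The 31 other protein-coding genes tested within this span included 6 rises and 19 falls, with a median log2FC of -0.40.

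From ZNF302 to ZNF792 (chr19:34677639-34964049) there were 5 members, of which ZNF181 and ZNF792 rose (log2FC 0.20 and 0.32 ± 0.10) and ZNF599 fell (log2FC -0.30 ± 0.07). The share higher was 40% and the share lower 20%, against 38.5% and 38.1% of all genes. ZNF302, among the most abundant members, was at 88.7, 88.6, 82.8 and 88.3 CPM in untreated and 77.3, 85.7, 80.8 and 78.8 CPM in DOX libraries (log2FC -0.11 ± 0.05, adjusted p = 0.0504 by edgeR). This value lay at the threshold. With all 8 libraries ZNF302 passed it with DESeq2's median-of-ratios size factors (adjusted p = 0.048), the DESeq2 Wald test (0.0335) and no filter on low counts (0.0461), and it also passed without untreated replicate 3 (0.00855) and without DOX replicate 2 (0.0157). Its sign turned (log2FC 0.01) with library size only.

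The ZNF565 to ZNF573 cluster (chr19:36182060-37817300) was split nearly evenly, with 10 rises, 9 falls and a median log2FC of -0.02 among 26 members tested. The shares were 38.5% higher and 34.6% lower, against 38.5% and 38.1% of all genes. ZNF146 (OZF), which consists of 10 fingers and lacks a KRAB A box, was the member with the highest level per kb. It fell from 201, 214, 193 and 209 CPM to 133, 142, 125 and 129 CPM (log2FC -0.63 ± 0.05, adjusted p = 6.18e-07 by edgeR), with no overlap. ZNF565 lies across it on the opposite strand, with 446 exonic bases in common, and rose from 5.12, 5.01, 4.88 and 4.46 CPM to 8.08, 8.15, 8.43 and 8.37 CPM (log2FC 0.76 ± 0.07, adjusted p = 1.21e-06 by edgeR). The strand setting of the counting was not given in the sources used here, so that reads of the shared bases may count for either gene.

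ZNF850, with 29 fingers, had the largest fall of this cluster. Its level was 22.9, 23.6, 18.6 and 22 CPM without and 8.79, 7.25, 7.78 and 6.91 CPM with DOX (log2FC -1.50 ± 0.09, adjusted p = 3.33e-08 by edgeR), and every DOX library lay more than 2-fold below every untreated one. ZNF382, a KRAB gene described as a tumour suppressor, rose from 23.8, 22.3, 17.3 and 22.1 CPM to 26.6, 28, 25.3 and 24.2 CPM (log2FC 0.28 ± 0.09, adjusted p = 0.0124 by edgeR). Its groups did not overlap, although untreated replicate 3 was far below the other 3.

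From ZNF575 to ZNF296 (chr19:43525497-45076588) 8 members rose and 8 fell of 21 tested. Each share was 38.1%, against 38.5% of all genes higher and 38.1% lower. The rises lay mostly in the middle, where ZNF222, ZNF223, ZNF284 and ZNF224 rose in a row by log2FC of 0.43 to 0.68. ZNF222, ZNF223 and ZNF284 share 345, 1513 and 1908 exonic bases on their strand with the same gene, AC067968.1. The division of reads among them is uncertain. ZNF284 went from 5.84, 5.19, 5.63 and 4.33 CPM to 8.52, 8.92, 8.88 and 7.38 CPM (log2FC 0.68 ± 0.10, adjusted p = 7.89e-05 by edgeR). At its end, ZNF112, ZNF180 and ZNF296 fell in a row, by log2FC of -0.71, -0.45 and -1.57. ZNF296, a factor with 6 fingers and no KRAB A box that is known from pluripotent cells, was at 7.63, 6.12, 7.87 and 6.16 CPM without and 2.35, 2.24, 1.92 and 2.84 CPM with DOX (SE 0.13, adjusted p = 5.91e-07 by edgeR). ZNF428 fell less, from a mean of 52.6 ± 3.86 to 41.8 ± 4.02 CPM (SD, n = 4, log2FC -0.33 ± 0.07, adjusted p = 0.00143 by edgeR).

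The ZNF175 to ZNF331 cluster (chr19:51571298-53580269) had 13 rises and 7 falls among 35 members tested. The share higher was 37.1% and the share lower 20%, against 38.5% and 38.1% of all genes. Runs of 4 and 3 rises (ZNF600, ZNF28, ZNF468 and ZNF320, and ZNF528, ZNF808 and ZNF701) and 1 run of 3 falls (ZNF841, ZNF616 and ZNF836) were found. ZNF320 rose from 4.35, 4.51, 2.99 and 3.68 CPM to 8.1, 7.7, 9.21 and 8.41 CPM (log2FC 1.11 ± 0.12, adjusted p = 5.39e-06 by edgeR), but it shares 8057 exonic bases on its strand with other annotated genes, ZNF468 among them, and the division of reads is uncertain. ZNF836 fell from 5.75, 5.69, 5.57 and 5.76 CPM to 2.56, 3.04, 3.07 and 3.06 CPM (log2FC -0.96 ± 0.09, adjusted p = 9.73e-07 by edgeR). The untreated libraries of ZNF836 were almost equal. ZNF331, an imprinted gene, fell from 32.8, 32.8, 29.6 and 34.6 CPM to 21.9, 22.1, 21.7 and 21.4 CPM (log2FC -0.58 ± 0.05, adjusted p = 1.19e-06 by edgeR), without overlap. ZNF649, a KRAB repressor, did not pass the test with all libraries (log2FC -0.16 ± 0.09, adjusted p = 0.141 by edgeR), but did without untreated replicate 3 (log2FC -0.24, adjusted p = 0.00733).

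At the end of the long arm, the ZNF628 to ZNF446 cluster (chr19:55476332-58481230) was the largest, with 59 members, 56 tested, 24 higher, 13 lower and a median log2FC of 0.14. In this cluster 42.9% of tested members were higher and 23.2% lower, against 38.5% and 38.1% of all genes. Its falls were led by ZNF581, among the 5 most abundant members per kb, which went from 67.8, 68.2, 83.6 and 68 CPM to 30.5, 32.4, 32 and 35.7 CPM (log2FC -1.14 ± 0.08, adjusted p = 7.76e-08 by edgeR). All DOX libraries lay at about the same level, under the 4 untreated ones. ZNF581 shares 529 exonic bases on its strand with other genes, ZNF580 among them, which did not pass the test (log2FC -0.04).

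In the middle of this cluster a run of 4 rises (ZNF419, ZNF549, ZNF550 and ZNF416) was followed directly by a run of 4 falls (ZNF530, ZNF134, ZNF211 and ZNF551). ZNF549 rose from 13.3, 11.6, 10.5 and 12.3 CPM to 22.8, 22.9, 22.2 and 20.7 CPM (log2FC 0.89 ± 0.07, adjusted p = 3.75e-07 by edgeR). ZNF551 fell from 23.7, 23.4, 20.6 and 24.2 CPM to 11.7, 12.7, 10 and 11.3 CPM (log2FC -1.01 ± 0.08, adjusted p = 2.19e-07 by edgeR). Neither gene had overlapping groups. ZNF154, whose promoter is known to be methylated in many tumours, lies within the span of ZNF551 on the other strand and was near the filter at 1.41, 1.12, 0.874 and 1.23 CPM without and 0.867, 1.15, 0.665 and 0.859 CPM with DOX. It did not pass the test (log2FC -0.40 ± 0.19, adjusted p = 0.0767 by edgeR) unless untreated replicate 3 (adjusted p = 0.0183) or DOX replicate 2 (adjusted p = 0.0271) was left out.

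ZNF587 and ZNF417, a pair of near-identical genes known to repress endogenous retroviruses of the HERV-K group, did not pass the test. ZNF587 was at 57, 48, 39.3 and 50.9 CPM in untreated and 55.2, 59.9, 48.3 and 47.8 CPM in DOX libraries (log2FC 0.11 ± 0.11, adjusted p = 0.35 by edgeR). ZNF417 was at 13.1, 12.4, 9.55 and 12.6 CPM in untreated and 14.5, 14.7, 11.8 and 12.1 CPM in DOX libraries (log2FC 0.16 ± 0.11, adjusted p = 0.202 by edgeR), and passed the test with library size only (log2FC 0.28, adjusted p = 0.0419). The groups overlapped in both genes, and reads that match several genes were divided by the counting program. ZNF274, which recruits SETDB1 to zinc finger genes themselves, rose from 24.2, 24.4, 24.3 and 25.6 CPM to 29, 30.6, 29.4 and 32 CPM (log2FC 0.30 ± 0.05, adjusted p = 0.000125 by edgeR), without overlap. ZNF582, another gene known for promoter methylation in tumours, was at a mean of 1.68 ± 0.161 CPM without and 2.18 ± 0.572 CPM with DOX (SD, n = 4, log2FC 0.37 ± 0.18, adjusted p = 0.0818 by edgeR), and passed the test without DOX replicate 3 (adjusted p = 0.0132) and with library size only (log2FC 0.49, adjusted p = 0.0271).

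The 11 members outside these 9 clusters lay alone or in groups of up to 3, and 10 were tested, with 4 higher and 3 lower. Of all genes tested, 38.5% were higher and 38.1% lower. ZNF536, a gene of the nervous system that restrains neuronal differentiation, lies apart from the others at chr19:30228290-30713538. It fell from 62.4, 63.6, 52.5 and 60.4 CPM to 44.9, 41.3, 41.3 and 43.8 CPM (log2FC -0.48 ± 0.06, adjusted p = 2.58e-05 by edgeR), without overlap.

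**Figure D4:**
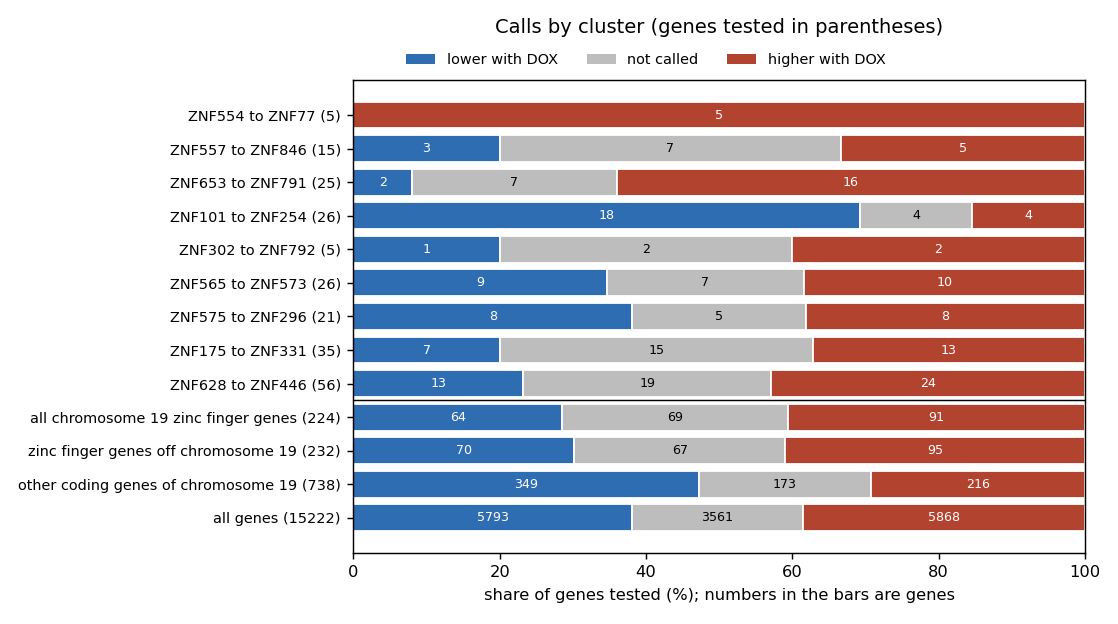
Share of genes tested (horizontal axis, percent) that were lower with DOX (blue), not called (grey) or higher (red) in each cluster of at least 5 members, named by its first and last gene, and in the comparison groups below the line; numbers in the bars are genes and numbers in parentheses are genes tested. The ZNF101 to ZNF254 cluster has 18 blue of 26 genes, and the ZNF653 to ZNF791 cluster 16 red of 25.

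Members that follow each other shared their direction more often than members of different clusters. Among the 155 called members, 91 of 140 pairs of consecutive called members in a cluster had the same direction (65%), against 804 of 1433 other pairs within a cluster (56.1%) and 5216 of 10362 pairs between clusters (50.3%). When the clusters of ZNF653 to ZNF791 and ZNF101 to ZNF254 were set aside, 60 of 102 consecutive pairs agreed in direction (58.8%), against 51.1% of other pairs within a cluster and 52.5% between clusters. These pairs are not independent of each other, many share reads or sequence, and no test was made.

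The presence of a KRAB domain was not used to choose the genes, and calls are given here by it, with no test of the difference. Of 190 tested members with a KRAB A box 85 rose and 44 fell, with a median log2FC of 0.15. Of 34 without one 6 rose and 20 fell, with a median of -0.31. The share higher was 44.7% with the box and 17.6% without it, against 38.5% of all genes. The share lower was 23.2% and 58.8%, against 38.1%. The share called was 67.9% and 76.5%, against 76.6%. Without untreated replicate 3 the counts were 85 and 51 with the box and 6 and 21 without it, and with library size only 102 and 34 against 9 and 15. Members without the box included ZNF146, ZNF358, ZNF428, ZNF581, ZNF296 and ZNF536, which all fell. The 6 that rose were ZNF653, ZNF526, ZNF628, ZNF865, ZNF784 and ZNF444. Among KRAB members, 81 rose and 28 fell of 166 outside the ZNF101 to ZNF254 cluster, whereas 4 rose and 16 fell of 24 within it.

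**Figure D5:**
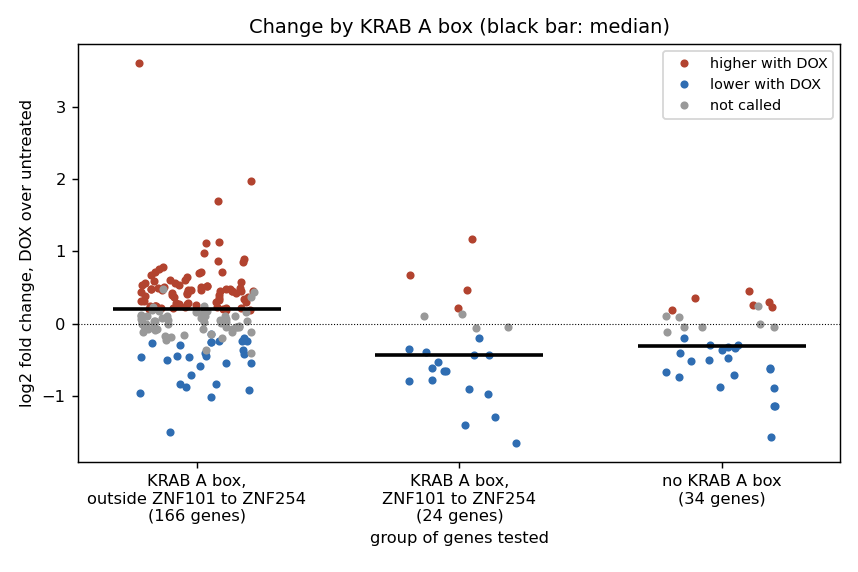
The log2 fold change (vertical axis, DOX over untreated) of tested members with a KRAB A box outside and inside the ZNF101 to ZNF254 cluster and of those with no KRAB A box; points are genes, red higher with DOX, blue lower and grey not called, and the black bar is the median. In the first group 81 of 166 genes are red, in the second 16 of 24 are blue and in the third 20 of 34 are blue.

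By the number of fingers the calls were spread as follows. Among members with up to 9 fingers 25 rose and 20 fell of 64, among those with 10 to 14 fingers 37 and 29 of 93, and among those with 15 or more 29 and 15 of 67. The shares higher were 39.1%, 39.8% and 43.3%, against 38.5% of all genes. The shares lower were 31.2%, 31.2% and 22.4%, against 38.1%. Over the 224 members, Spearman's rho with the log2FC was 0.06 for the number of fingers, 0.08 for exon length and -0.03 for mean CPM, given as a description, since members share sequence and reads.

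MYC and its partner MAX bind the E-box CACGTG, a palindrome that reads the same on both strands. In RefSeq promoters (GRCh38.p14, 250 bases before to 50 after each annotated start), matched for 217 members, 11 had this motif at any start (5.07%), against 8.77% of 27305 genes in the table, 11% of protein-coding genes and 12.7% of the genes tested. It was present in 4 of 82 members that rose, 4 of 57 that fell and 3 of 59 that did not pass the test, and in none of 25 members from ZNF653 to ZNF791 or 29 from ZNF101 to ZNF254. A match is a description of letters and not of a bound site. The windows below are of 30 bases around the E-box (capitals), 5′ to 3′ on the strand of the gene, for members named above that carry it, to show where the motif lies relative to a start.
ZNF296: gggcccggccagCACGTGtaagagttcgcg
ZNF331: cgtaCACGTGcatgtcgcggtctgggtgta
ZNF536: ttttgctgctcaCACGTGgcctgctgggag
ZNF565: ctactttcgcgcCACGTGgacccaggggcc
ZNF587: agaaggcatttcCACGTGtgcacgtaacgt

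The window of ZNF296 is chr19:45076491-45076520 on the minus strand, with the motif 30 bases before the RefSeq start. That of ZNF331 is chr19:53554363-53554392 on the plus strand, 246 bases before an internal start, and that of ZNF536 is chr19:30372322-30372351 on the plus strand, 50 bases before an internal start. For ZNF565 the window is chr19:36215164-36215193 on the minus strand, 97 bases before an internal start, and is shown out of 4 sites of this gene. This window lies within the span of ZNF146 (chr19:36214602-36238774, plus strand), which fell. The other sites of ZNF565 lie 149, 175 and 248 bases before another start, in windows between 36246060 and 36246178. For ZNF587 it is chr19:57849805-57849834 on the plus strand, 42 bases before the start. ZNF296, ZNF331 and ZNF536 fell, ZNF565 rose and ZNF587 did not pass the test.

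ZNF587B, which lies close to ZNF587, and ZNF814, which lies across ZNF587 on the opposite strand, were named after their values were seen. They carry the motif as follows.
ZNF587B: atttcctgtgtgCACGTGacaatgggtccg
ZNF814: gtttcctgtgtgCACGTGacaatgggtccg
They lie at chr19:57830237-57830266 on the plus strand and chr19:57889065-57889094 on the minus strand. Both genes rose, by a log2FC of 0.45 and 0.61. ZNF587B shares 840 exonic bases on its strand with other genes, ZNF586 among them. ZNF814 and ZNF587 have 2445 exonic bases in common on opposite strands, and the strand setting of the counting was not given. The division of reads is thus uncertain for both.

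Calls were also counted for the corepressors through which KRAB proteins act. Of 21 genes of this machinery, all tested, 12 fell, 4 rose and 5 did not pass the test, with a median log2FC of -0.20. The share called was 76.2%, against 76.6% of all genes, and the share lower was 57.1%, against 38.1%. With library size only, 7 rose and 10 fell. TRIM28, the protein that KRAB domains bind, fell from 485 ± 47 to 354 ± 23.9 CPM (SD, n = 4, log2FC -0.45 ± 0.07, adjusted p = 0.000123 by edgeR). The heterochromatin proteins CBX5, CBX3 and CBX1 fell by log2FC of -0.44, -0.57 and -0.20, the last of which was not called with library size only (log2FC -0.08, adjusted p = 0.0774 by edgeR). SETDB1, which methylates histone H3 at lysine 9, rose from 142 ± 1.16 to 191 ± 1.86 CPM (log2FC 0.43 ± 0.04, adjusted p = 8.29e-07 by edgeR), while its partner ATF7IP did not pass the test (log2FC -0.20, adjusted p = 0.119 by edgeR), but did with no filter on low counts (log2FC -0.22, adjusted p = 0.0253) and without untreated replicate 3 (log2FC -0.31, adjusted p = 8.69e-05).

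The largest falls of the list were in genes that act with DNA methylation and replication. UHRF1, which guides DNMT1 to newly copied DNA, fell from 118 ± 3.97 to 22.5 ± 1.71 CPM (log2FC -2.40 ± 0.06, adjusted p = 1.46e-11 by edgeR) and was the only gene of the list past the stricter thresholds. DNMT1, the maintenance DNA methyltransferase, fell from 322 ± 9.05 to 136 ± 5.79 CPM (log2FC -1.24 ± 0.05, adjusted p = 4.36e-10 by edgeR), and the remodeller HELLS by a log2FC of -1.12. The other rises were in CHD3 (log2FC 0.50), ATRX (0.41) and FAM208A (0.25), which encodes the HUSH subunit TASOR. Of the other HUSH subunits, PPHLN1 fell (log2FC -0.14) and MPHOSPH8 did not pass the test (0.06), but with library size only PPHLN1 was not called (-0.02, adjusted p = 0.772 by edgeR) and MPHOSPH8 was called higher (0.18, adjusted p = 0.0129). CHD4 and HDAC2 fell by a log2FC of -0.37 and -0.42, the modifier SUMO2 by -0.53 and the histone chaperone DAXX by -0.46. HDAC1, MORC2 and SMARCAD1 did not pass the test (log2FC 0.10, 0.04 and -0.07). With library size only HDAC1 and MORC2 were called higher (log2FC 0.23 and 0.17), and without untreated replicate 3 HDAC1 was called higher (0.13) and SMARCAD1 lower (-0.13). HDAC1 was also called with more than 4 libraries over 1 CPM required (0.11) and without DOX replicate 2 (0.12).

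Members resemble each other, and the counting program divided reads that matched several genes. The expected count was not whole in at least 1 library for 139 of the 224 members tested (62.1%), against 48.9% of all genes tested. Among the 85 members whose counts were whole throughout, 27 were higher and 25 lower, with a median log2FC of 0.02. Of all genes tested, 76.6% were called, 38.5% higher and 38.1% lower. Of these 85 members, 61.2% were called, 31.8% higher and 29.4% lower. In the ZNF101 to ZNF254 cluster 9 such members were tested, with 5 lower and 1 higher, and in the ZNF653 to ZNF791 cluster 7, with 4 higher and 1 lower. Those with whole counts throughout included ZNF441, ZNF556, ZNF850, ZNF296, ZNF331 and ZNF274. The members include 3 readthrough genes, 2 of them tested, which share exons with the genes they join and were counted on their own. Exons of 85 of the 249 members were shared with another gene on the same strand, and exons of 79 were overlapped on the other strand. Among the members given with each library, ZNF358, ZNF433, ZNF20, ZNF536, ZNF565, ZNF284, ZNF296, ZNF836, ZNF320, ZNF581, ZNF551, ZNF587 and ZNF417 had such bases on the same strand.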

How the data were processed

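PolyA+ RNA of 4 untreated and 4 DOX-treated D283-OMO replicates was sequenced as paired reads from a stranded kit. The authors trimmed reads (Trim Galore), aligned them (STAR) and counted them (RSEM) against GENCODE 32 on GRCh38, and deposited expected counts per gene, not normalized. RSEM divides reads that match several genes; its strand setting is not given in the sources used here. 

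Expected counts were rounded. Genes over 1 CPM in at least 4 of 8 libraries were fitted with edgeR 4.0.16 in R 4.3.3 (TMM, quasi-likelihood test, no covariates), with Benjamini-Hochberg adjustment over 15222 genes. A standard error is the absolute log2FC over the square root of F. Symbols, positions, exon lengths and coding sequences were taken from GENCODE 29, which held 58561 of 60668 gene IDs. HKR1, which newer releases call a ZNF gene, was not counted. A KRAB A box was called at 6 or more of 10 fixed positions (members without one matched 4 at most). Fingers were counted by the C2H2 pattern. Values at or under 3 counts per library were taken as the floor. No molecular identifiers were read, so that floors and intervals hold for counting error alone. Exact two-sided permutation tests over the 70 divisions of 4 against 4 libraries gave 0.0286, the smallest p possible, for every named member whose groups did not overlap. This p follows from the lack of overlap itself, for which many of them were chosen, and is no separate support.

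The members, gene lists and tests were chosen with earlier results of these data known. Named are the members past an FDR of 0.001 and an absolute log2FC of 2, as in the study's methods, the 8 largest rises and 8 largest falls without overlap, the 5 highest per kb, the largest called rise and fall of each cluster, members of known role and the corepressor list (21 genes; a further gene was left out and is not reported here); other members are named in runs, in silent stretches or beside these, and were chosen after their values were seen. The alternatives were scaling by median-of-ratios size factors or by library size alone, the tests of DESeq2 1.42.0 (Wald) and of edgeR by likelihood ratio, other filters, the replicate number as a block, whole counts only, gaps of 0.5 and 2 Mb, transcript length and each library left out in turn. The fits were tested on simulated counts of 15222 genes. Each of 7 fits recovered 100 of 100 genes changed by a log2FC of 1 and 100 of 100 changed by 3. There were 16 false calls in the main fit and 36 at most. Changes were planted in few genes, all with a mean over 5 CPM, and as many up as down. Smaller changes, changes at lower levels and a change of most genes were not simulated. Python 3.11.15, numpy 2.4.6, pandas 2.3.3 and scipy 1.17.1 were used.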

Additional observations from a re-analysis of the deposited data

Results flagged for a closer look

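In 14 of 134 groups of 4 libraries, each a gene or a cluster sum in 1 condition, 1 library lay farther from the other 3 than Dixon's 95% limit allows, where chance gives about 1 in 20, or 6.7. Untreated replicate 3 was that library in 10 of the 14. It was the highest of its group for ZNF581 (83.6 against 67.8 to 68.2 CPM) and ZNF428 (58.4 against 50.5 to 50.8 CPM). It was the lowest for ZNF302 (82.8 against 88.3 to 88.7 CPM), SETDB1 (140 against 142 to 143 CPM), ATF7IP (101 against 143 to 147 CPM), SMARCAD1 (60.8 against 71.6 to 73.6 CPM) and ATRX (94.2 against 145 to 147 CPM). The same library was also lowest for the summed CPM of the ZNF101 to ZNF254 cluster (388 against 452 to 463), the ZNF565 to ZNF573 cluster (507 against 564 to 575) and the ZNF175 to ZNF331 cluster (356 against 396 to 402).

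Other libraries stood apart in 4 cases. ZNF492 was at 3.94 CPM in DOX replicate 2 against 2.52 to 2.64 CPM, and ZNF836 at 2.56 CPM in DOX replicate 1 against 3.04 to 3.07 CPM. ZNF274 was at 25.6 CPM in untreated replicate 4 against 24.2 to 24.4 CPM, and CHD3 at 245 CPM in untreated replicate 1 against 254 to 255 CPM.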

How the results depend on the processing

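With library size only, 2 members passed the stricter thresholds in place of 1, 7 corepressor genes rose in place of 4 and the median log2FC of the members was 0.23 in place of 0.10. With more than 4 libraries over 1 CPM required, 0 members passed those thresholds, since ZNF556 was not tested, and with no filter on low counts 2 did. The median log2FC over members with whole counts was 0.02. The median level per kb over all libraries was 2.14 CPM by exon length and 2.85 CPM by the longest transcript. Signs turned for ZNF91 (0.09 with library size only, -0.12 to 0.00 with single libraries left out), ZNF302 (0.01 with library size only) and SMARCAD1 (0.06 with library size only); none of these passed the test there. With each library left out in turn, 146 to 163 members were called, 84 to 91 higher and 61 to 72 lower, with a median log2FC of 0.04 to 0.12, and 1 to 2 passed the stricter thresholds. From ZNF653 to ZNF791 13 to 16 rose, from ZNF101 to ZNF254 17 to 18 fell, and without a KRAB A box 19 to 21 fell. Among the corepressors 4 to 5 rose and 12 to 14 fell, and 30 to 33 of the named members were called. Of 868 values for 58 single genes under these settings, 842 kept their direction and side of the threshold, 2 lost and 20 gained a call, and 4 turned sign. Deviations from the group means correlated at r of 0.22, 0.201, 0.341 and -0.268 between libraries of the same number (mean 0.123, against -0.045 for other pairs); since 1 pair was negative, the numbers were not taken to pair the libraries; the fit with replicate number as a block called 154 members, 90 higher and 64 lower, and 1 of 8 libraries correlated best with its own number. With gaps of 2 Mb in place of 1 Mb the cluster of ZNF44 was joined to others, and 52.5% of its 40 tested members rose in place of 64%. The causes were not tested. At these depths 15 members were at 3 counts or fewer in every library, and a change in them was not detectable.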
